A study of Homo sapiens with 12 samples.

Results

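The angiogenic ligands described here are VEGFA, VEGFB, VEGFC and PGF of the VEGF family, the angiopoietins ANGPT1, ANGPT2 and ANGPT4, the angiopoietin-like ANGPTL4, and the adrenomedullin peptides ADM and ADM2. They are 10 of the 28278 gene symbols counted and were chosen by symbol. ANGPT4 alone was picked for its rise in both cell lines, so its changes are given as a description with no test. The other ligands were not picked by their change, but they were listed with earlier results of these data known.

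Tumour cells secrete these proteins to act on nearby vessels. VEGFA drives endothelial growth and permeability through its receptors FLT1 and KDR, with NRP1 and NRP2 as co-receptors, while VEGFB and PGF bind FLT1 and VEGFC acts mainly on FLT4 of lymphatic vessels. Angiopoietins bind the TIE2 receptor, encoded by TEK. Adrenomedullin dilates vessels through CALCRL paired with a RAMP protein, and ANGPTL4 inhibits lipoprotein lipase and acts on vessel permeability. VEGFA, ANGPTL4 and ADM are textbook targets of the hypoxia-inducible factors (HIFs), the oxygen-sensing transcription factors.

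Bulk polyA RNA was measured in OVCAR3, labelled ovarian cancer, and CCL218, a colorectal cancer line, both p53 mutant and platinum-resistant. HCQ-evolved cells had received 15 pulses of hydroxychloroquine (HCQ), a drug that blocks lysosomal acidification and autophagy, each lasting 48 h and followed by recovery, and then grew for 7 days without drug. Control cells were passaged without drug. Each of the 4 groups had 3 pools of wells, from the left (L), middle (M) and right (R) of 1 plate. Wells were passaged separately until they were pooled, and p-values measure the spread between pools of 1 plate. The labels give passage 15 for HCQ-evolved and passage 19 for control pools, and drug, plate and passage number cannot be told apart.

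Pools held 31147822 to 59965861 counts. Levels are CPM, counts scaled to library size with the sizes adjusted by TMM over the 12 libraries, and levels of different genes are compared only as RPKM, which also divides by transcript length. Pools differed within groups in how levels followed transcript length, with a rank correlation from -0.51 to 0.57. The R pool of HCQ-evolved OVCAR3 (0.57) went against its L (-0.42) and M (-0.45) pools. Likewise the M pool of control OVCAR3 (0.54) went against its L (-0.37) and R (-0.41) pools. The libraries under both line names held markers of both tissues. PAX8, an ovarian and Müllerian factor, was at 6.40 to 14.9 CPM and VIL1, villin of the gut epithelium, at 78.5 to 290 CPM over all 12 pools. Other markers did differ. In the control pools edgeR called the colorectal marker CEACAM5 higher in CCL218 (5.08 against 14.2 CPM), but also mesothelin, MSLN, of the ovarian list (14.3 against 63.6 CPM). CDH17 averaged 3.34 and 3.84, GPA33 3.10 and 4.77 and CDX2 10.9 and 23.2 CPM in the control pools of OVCAR3 and CCL218. In the evolved pools of OVCAR3 and CCL218, CDH17 averaged 3.49 and 52.5, GPA33 5.22 and 34.7, CEACAM5 5.18 and 60.9 and CDX2 6.26 and 67.8 CPM. A difference of line and a change during evolution cannot be told apart in the evolved pools alone. The ovarian list was mixed there. MUC16 averaged 30.9 and 4.77 CPM, while MSLN went the other way, at 6.86 and 107 CPM. PAX8 (8.48 and 9.53 CPM) and FOLR1 (2.24 and 1.96 CPM) were at similar levels. "OVCAR3" and "CCL218" are used as the labels give them. Of 8 endothelial markers, CDH5, VWF, EMCN, CLDN5 and ROBO4 did not exceed 0.413 CPM in any pool, while PECAM1 was at 0.568 to 3.17, EGFL7 at 0.870 to 6.81 and ESAM at 32.3 to 74.3 CPM. Their summed level was 51.9 to 62.0 CPM in control and 67.4 to 80.3 CPM in HCQ-evolved OVCAR3 pools, and 34.2 to 40.7 and 41.1 to 49.1 CPM in CCL218. Most of this sum was ESAM, which averaged 48.4 and 65.7 CPM in control and evolved OVCAR3 and 35.5 and 41.8 CPM in CCL218. In OVCAR3 PECAM1 went from 2.83 to 1.87 and EGFL7 from 5.51 to 4.17 CPM, and in CCL218 from 1.07 to 0.916 and from 1.60 to 2.33 CPM. The part of the summed level in the results was not tested.

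HIFs bind DNA at the core ACGTG or GCGTG. RefSeq (GRCh38.p14) gave promoter sequence for 7 of the 10 ligands, and both strands of the 250 bases before each RefSeq start were searched for these 5 letters. The windows of ANGPT4, ANGPTL4 and ADM are shown because these genes had the largest fold changes among the ligands in both lines, with matches in capitals (CACGC and CACGT are GCGTG and ACGTG on the other strand).
ANGPT4 (chr20:916335-916584, minus strand): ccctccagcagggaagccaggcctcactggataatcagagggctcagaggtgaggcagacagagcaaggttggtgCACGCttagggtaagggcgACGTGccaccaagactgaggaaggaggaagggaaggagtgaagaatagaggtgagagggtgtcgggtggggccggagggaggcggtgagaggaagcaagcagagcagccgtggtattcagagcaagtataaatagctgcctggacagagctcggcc
ANGPTL4 (chr19:8363905-8364154, plus strand): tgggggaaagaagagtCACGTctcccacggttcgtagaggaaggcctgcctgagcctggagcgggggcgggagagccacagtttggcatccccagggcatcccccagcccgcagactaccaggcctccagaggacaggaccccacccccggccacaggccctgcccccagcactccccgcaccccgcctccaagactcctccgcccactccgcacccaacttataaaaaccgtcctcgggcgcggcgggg
ADM (chr11:10304823-10305072, plus strand): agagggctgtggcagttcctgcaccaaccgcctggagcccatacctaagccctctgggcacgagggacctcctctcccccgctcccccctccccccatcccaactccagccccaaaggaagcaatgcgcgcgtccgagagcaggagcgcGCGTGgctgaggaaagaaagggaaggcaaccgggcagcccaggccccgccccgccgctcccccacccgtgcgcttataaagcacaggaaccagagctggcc

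ANGPT4 held ACGTG beginning 156 bases before the start and GCGTG at 175. ANGPTL4 held ACGTG at 234 bases, and ADM held GCGTG at 101. GCGTG also stood in the windows of ADM2 (225), VEGFB (61), VEGFC (59) and PGF (162, in 1 of its windows). Of these 4 genes VEGFC was too low to be tested, and of the others only ADM2 passed the main edgeR test, in CCL218. Such short matches were common, with ACGTG in 18.5%, GCGTG in 32.2% and either in 43.2% of 35116 promoter windows of this length. A match is a run of letters and not a measured binding site.

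ANGPT4 RNA was low in every control pool and higher in every HCQ-evolved pool of both lines. ANGPT4 (chromosome 20, 869900 to 916334, minus strand, GENCODE 44 on hg38) encodes an angiopoietin that activates TIE2 in human cells. Its OVCAR3 control pools held 29 (L), 20 (M) and 31 (R) counts, and the HCQ-evolved pools held 138, 149 and 135 counts. The CCL218 control pools held 30, 22 and 18 counts and the evolved pools 318, 293 and 312 counts. The control values of both lines thus lay close together, and no evolved pool reached down to them. In bulk RNA, more cells with a transcript and more of it per cell cannot be told apart, here and for every gene below.

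As CPM, ANGPT4 averaged 0.650 ± 0.0892 (SD, n = 3) in control and 2.51 ± 0.320 in HCQ-evolved OVCAR3, a ratio of 3.87. In CCL218 it averaged 0.533 ± 0.183 in control and 5.69 ± 0.724 in HCQ-evolved pools, a ratio of 10.7. The fitted log2 fold changes were 1.97 in OVCAR3 and 3.42 in CCL218. The controls of both lines overlapped, while the CCL218 evolved pools (5.22 to 6.53 CPM) lay above the OVCAR3 evolved pools (2.26 to 2.87 CPM). ANGPT4 passed the filter on low counts only through its HCQ-evolved pools, since 0 control and 6 evolved libraries reached 1 CPM, and it remained a low-abundance RNA after evolution.

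**Figure D1:**
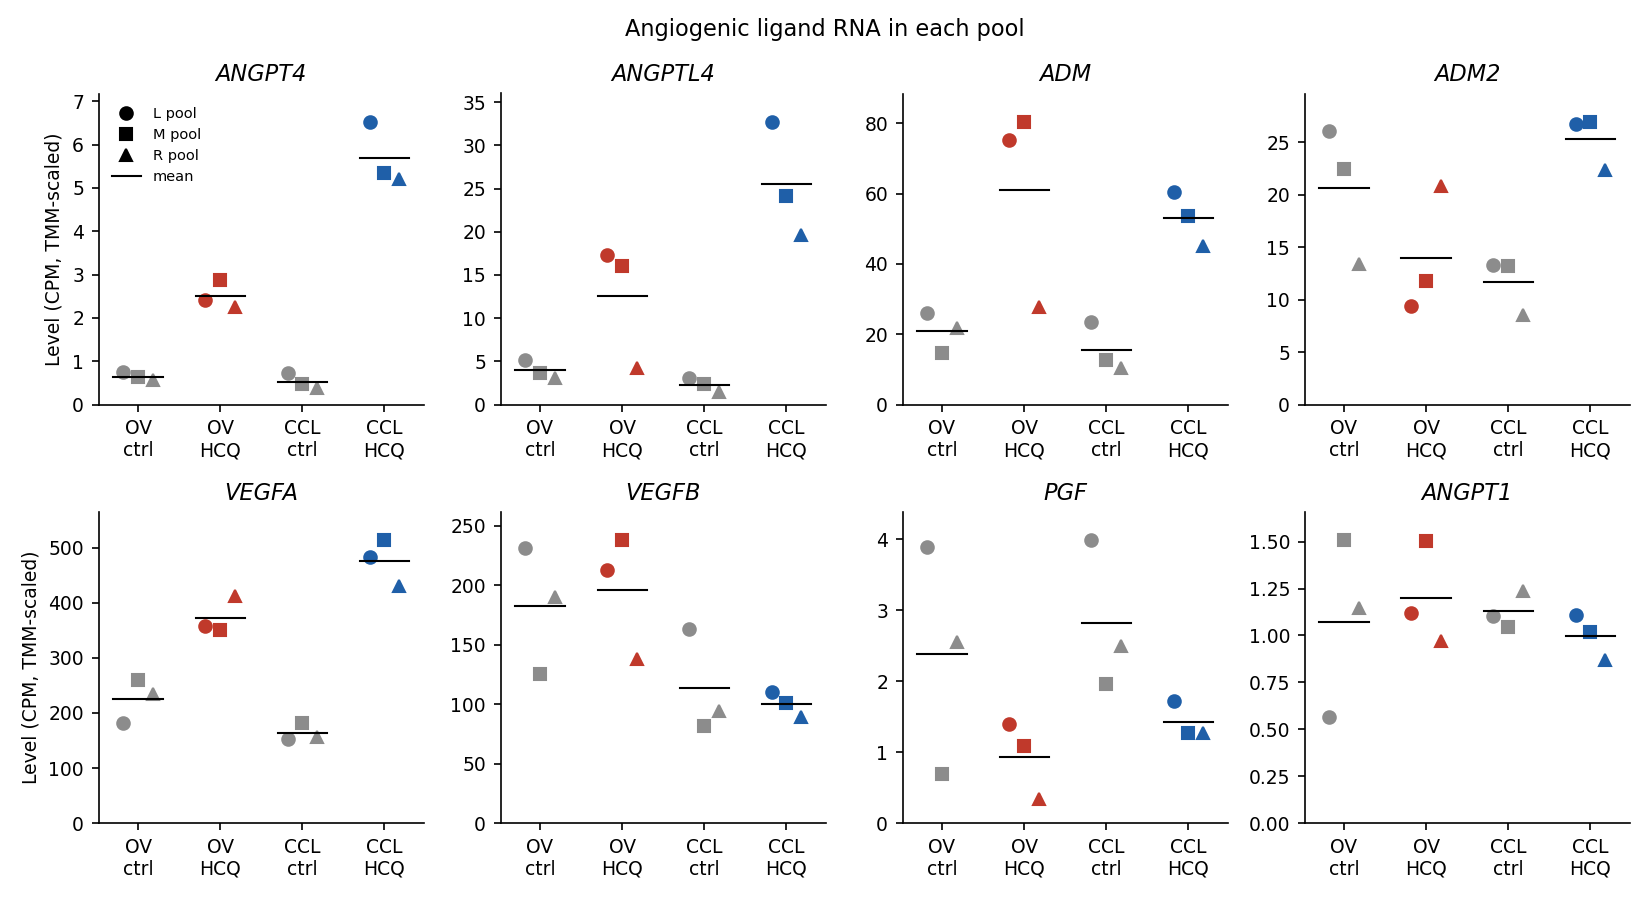
RNA level (CPM, linear axis from 0) of the 8 ligands that passed the filter in each pool; OV is OVCAR3, CCL is CCL218, ctrl is control, HCQ is HCQ-evolved, marker shape is plate position and the bar is the mean of 3 pools. All evolved pools of ANGPT4 and VEGFA lie above the controls of their line, while the R pool of HCQ-evolved OVCAR3 lies near the controls for ANGPTL4 (4.25 CPM) and ADM (27.7 CPM).

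The other angiopoietins did not show this pattern. ANGPT1, the main TIE2 agonist, had 22 to 78 counts in every pool, at 1.07 ± 0.474 CPM in control and 1.20 ± 0.276 CPM in evolved OVCAR3 and at 1.13 ± 0.0986 and 0.999 ± 0.121 CPM in CCL218 (SD, n = 3). Its log2 fold change was 0.17 (95% interval -0.78 to 1.120) in OVCAR3 and -0.18 (-0.72 to 0.36) in CCL218, and the pools overlapped in both. ANGPT2, a context-dependent TIE2 antagonist, had 0 to 12 counts per pool and was not tested. Its highest value, 12 counts, came from the L control pool of CCL218, and the evolved CCL218 pools held 2, 0 and 3 counts.

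Set against ANGPT1 in the same library, ANGPT4 changed from the lower to the higher of the pair. The ratio of ANGPT4 to ANGPT1 in RPKM was 1.19, 0.376 and 0.451 (L, M, R) in control and 1.94, 1.72 and 2.10 in evolved OVCAR3. In CCL218 it was 0.601, 0.413 and 0.280 in control and 5.31, 4.72 and 5.41 in evolved pools. Only the L control pool of OVCAR3, where ANGPT1 had 22 counts, had more ANGPT4 than ANGPT1 per length among the 6 control pools.

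ANGPTL4 rose in CCL218 by about as much as ANGPT4. The gene lies on chromosome 19 (8363289 to 8374370, plus strand), and ANGPTL4 levels were 3.12, 2.37 and 1.43 CPM in the L, M and R control pools of CCL218 and 32.7, 24.1 and 19.6 CPM in the evolved pools. The groups were far apart, at 2.31 ± 0.848 and 25.5 ± 6.67 CPM (SD, n = 3), with a log2 fold change of 3.46 (SE 0.33, adjusted p = 0.00294, edgeR). In OVCAR3 it was at 5.21, 3.64 and 3.03 CPM in control pools and at 17.3, 16.0 and 4.25 CPM in evolved pools. The evolved R pool lay within the range of the controls, and the log2 fold change of 1.68 (SE 0.50, adjusted p = 0.147, edgeR) did not pass the test. Without that R pool it was 2.09 and passed. Leaving out any other OVCAR3 pool, control or evolved, gave 1.37 to 1.90, and none of these passed.

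ADM, the adrenomedullin precursor, lies on the plus strand of chromosome 11 (10305073 to 10307397). Its levels were 23.4, 12.6 and 10.3 CPM in control and 60.3, 53.5 and 45.1 CPM in evolved CCL218 pools. All evolved pools lay above all controls, and ADM rose with a log2 fold change of 1.78 (SE 0.31, adjusted p = 0.0225, edgeR). In OVCAR3 the controls were at 26.1, 14.8 and 21.7 CPM and the evolved pools at 75.2, 80.4 and 27.7 CPM. The R pool was again the low one, only just above the highest control, and the log2 fold change of 1.56 (SE 0.41, adjusted p = 0.106, edgeR) did not pass. Without the R pool it was 1.91 and passed. Leaving out any other OVCAR3 pool, control or evolved, gave 1.32 to 1.73, and none of these passed. In CCL218 the ADM call was lost, at log2 fold changes of 1.56 to 1.88, without the M control, the R control or any 1 of the evolved pools.

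VEGFA, on chromosome 6 (43770184 to 43786487) and the plus strand, was among the most abundant of the ligands in every group. Its OVCAR3 controls were at 181, 260 and 234 CPM and its evolved pools at 357, 350 and 412 CPM, so the groups did not overlap. The mean went from 225 ± 39.9 to 373 ± 33.6 CPM (SD, n = 3), and the log2 fold change of 0.74 (SE 0.20, adjusted p = 0.116, edgeR) did not pass. In CCL218 the controls were at 153, 182 and 156 CPM and the evolved pools at 483, 513 and 430 CPM. VEGFA rose there with a log2 fold change of 1.54 (SE 0.13, adjusted p = 0.00199, edgeR), and this call held in each of the 12 alternatives tried.

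ADM2 (intermedin), a peptide of the same family as ADM, did not move with it in OVCAR3. The gene lies on chromosome 22 (50481543 to 50486440, plus strand), and ADM2 levels were 26.1, 22.4 and 13.4 CPM in control and 9.36, 11.8 and 20.8 CPM in evolved OVCAR3, where the groups overlapped and the R pool was the highest evolved pool. The log2 fold change was -0.53 (95% interval -1.39 to 0.32, adjusted p = 0.531, edgeR). In CCL218 it was at 13.3, 13.2 and 8.49 CPM in control and 26.7, 26.9 and 22.3 CPM in evolved pools, and rose with a log2 fold change of 1.11 (SE 0.20, adjusted p = 0.0246, edgeR). The CCL218 call for ADM2 was lost, at log2 fold changes of 0.93 to 1.20, without the R control or any 1 of the evolved pools, and with all 12 libraries in one fit (adjusted p = 0.0716, edgeR). ADM2 overlaps SBF1 on the opposite strand, and the strand setting of the counting is not given in the sources used here, so their reads may be mixed. SBF1 had log2 fold changes of 0.46 (adjusted p = 0.504, edgeR) in OVCAR3 and 0.44 (adjusted p = 0.0837, edgeR) in CCL218.

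The remaining VEGF family members did not rise. VEGFB, also on chromosome 11 (64234584 to 64239264, plus strand), ranged from 126 to 232 CPM in control and 138 to 238 CPM in evolved OVCAR3. In CCL218 it ranged from 81.8 to 164 CPM in control and 89.6 to 110.0 CPM in evolved pools, so the groups overlapped in both lines. The log2 fold changes of 0.12 (95% interval -0.53 to 0.77) and -0.18 (-0.80 to 0.44) left room for a change of either sign. PGF, placental growth factor (chromosome 14, 74941834 to 74955626, minus strand), had 3.98, 1.96 and 2.50 CPM in control and 1.72, 1.28 and 1.27 CPM in evolved CCL218. All of its evolved CCL218 pools lay below all controls, with a log2 fold change of -0.99 (SE 0.31, adjusted p = 0.112, edgeR), and with plate position as a block it was -0.94 and passed (adjusted p = 0.0421, edgeR), as did 14.2% of all genes. PGF in CCL218 was also called by DESeq2 (-0.99, adjusted p = 0.0269), as were 17.7% of all genes. It was called with the length and GC trend removed too (-0.78, adjusted p = 0.0422, edgeR), where 1180 of 12241 genes were called higher and 956 lower. In OVCAR3 PGF was at 3.89, 0.691 and 2.55 CPM in control and 1.40, 1.08 and 0.335 CPM in evolved pools, with a log2 fold change of -1.33 (SE 0.68, adjusted p = 0.388, edgeR). VEGFC had 2 counts in the M and R evolved pools of OVCAR3 and 0 in the other 10 pools, under the floor of 3 counts, which equals 0.0502 to 0.0942 CPM at these depths.

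**Figure D2:**
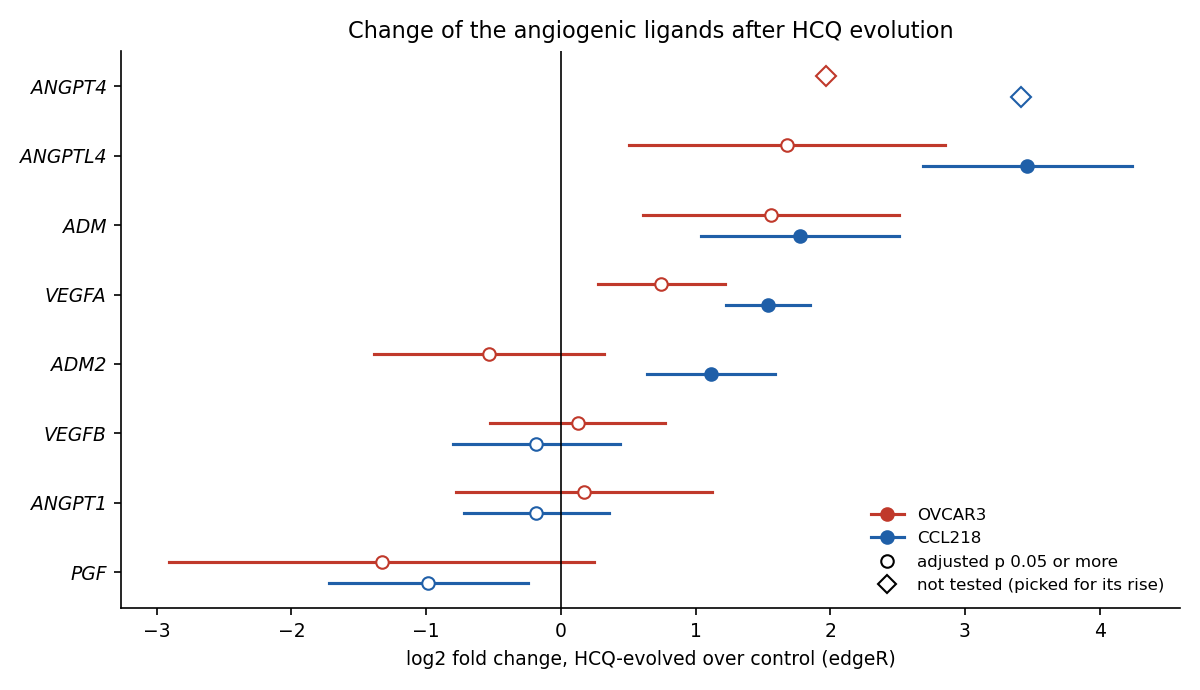
Log2 fold change of HCQ-evolved over control pools for each ligand in OVCAR3 (red) and CCL218 (blue); bars are 95% intervals of the edgeR fit, filled circles passed the test, and ANGPT4, picked for its rise, is drawn as open diamonds with no interval. ANGPTL4 (3.46), ADM (1.78), VEGFA (1.54) and ADM2 (1.11) are filled in CCL218, and no circle is filled in OVCAR3.

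Apart from ANGPT4, 7 ligands were tested in each line, since VEGFC and ANGPT2 were too low. These 7 were listed with earlier results of these data known, so their counts beside all genes are not an unbiased comparison. In CCL218 4 of the 7 rose (VEGFA, ANGPTL4, ADM and ADM2) and 0 fell, where 3.82% of the 12241 genes tested were called higher and 2.64% lower. The evolved and control pools did not overlap for 5 of the 7, against 36% of all genes tested. The median log2 fold change of the 7 was 1.11, and that of all genes was -0.02. In OVCAR3 0 of the 7 were called by edgeR, where 0.647% of 12204 genes were called higher and 1.21% lower. At an unadjusted p under 0.05, 3 of them passed (VEGFA, ANGPTL4 and ADM), where 16.2% of all genes did. DESeq2 called the same 3, and 9.05% of all genes. Pools did not overlap for 2 of the 7 (VEGFA and ADM), against 25.7% of all genes, and the median log2 fold change was 0.17 against 0.02.

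Removing each library's trend with transcript length and GC content gave the same 3 calls in OVCAR3, with 7.94% of all genes called and log2 fold changes of 0.77 for VEGFA, 1.76 for ANGPTL4 and 1.62 for ADM. A fit of all 12 libraries together, which borrows the spread of the other line, also called these 3, at 0.73, 1.66 and 1.55, and 9.24% of all genes. Without the R pool of HCQ-evolved OVCAR3, ANGPTL4 and ADM passed and VEGFA did not, with 4.72% of all genes called. The part of the trend with length in the low R values was not tested further.

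The change in CCL218 was compared with that in OVCAR3 by an interaction term over all 12 libraries. edgeR called 0 of the 7 ligands, with 0.872% of 12613 genes called. At an unadjusted p under 0.05, 3 passed, against 9.11% of all genes, and DESeq2 called 2, VEGFA and ADM2, against 3.67%. The difference, CCL218 minus OVCAR3 on the log2 scale, was 0.81 for VEGFA (95% interval 0.33 to 1.30, adjusted p = 0.146, edgeR) and 1.68 for ADM2 (0.68 to 2.67, adjusted p = 0.141, edgeR). It was 1.80 for ANGPTL4 (0.36 to 3.25, adjusted p = 0.348, edgeR) and 0.24 for ADM (-1.003 to 1.47). ADM2 was the only called ligand with opposite signs in the lines, and its difference passed (2.08) without the R pool of HCQ-evolved OVCAR3, where 1.69% of all genes were called. For VEGFA the difference passed after the length and GC trend was removed (0.71), where 2.53% of all genes were called. For ANGPT4 the difference was 1.47, given with no test.

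Between the control pools of the lines, CCL218 was lower than OVCAR3 by point estimate for VEGFA (log2 ratio -0.46), VEGFB (-0.69), ANGPTL4 (-0.78), ADM (-0.44) and ADM2 (-0.82). edgeR called 0 of the 7, with 2.02% of 12324 genes called. At an unadjusted p under 0.05, 2 passed, against 12.4% of all genes, and DESeq2 called 0, against 5.96%. Control pools of the same plate position deviated together across lines, and with position as a block these 5 ligands were called, at log2 ratios of -0.45, -0.71, -0.81, -0.49 and -0.80. With the block 36.3% of all genes were called, 2163 higher and 2314 lower, against 116 and 133 without it, so most genes called with it were not called without it. Only ADM2 had control pools that did not overlap between lines. After evolution, the mean CPM in CCL218 over that in OVCAR3 was 1.27 for VEGFA, 2.03 for ANGPTL4, 1.81 for ADM2 and 0.868 for ADM.

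Per transcript length, VEGFB led in both control groups and in evolved OVCAR3, and VEGFA led in evolved CCL218. In OVCAR3 controls VEGFB averaged 101 RPKM, VEGFA 62.3, ADM 14.0, ADM2 4.90, ANGPTL4 2.12, PGF 1.37, ANGPT1 0.254 and ANGPT4 0.138 RPKM. In HCQ-evolved CCL218 VEGFA averaged 132 RPKM, VEGFB 55.5, ADM 35.5, ANGPTL4 13.6, ADM2 6.01, ANGPT4 1.21, PGF 0.818 and ANGPT1 0.236 RPKM. Within CCL218, the control means had ADM2 (2.77 RPKM) and PGF (1.62) above ANGPTL4 (1.23), and ANGPT1 (0.267) above ANGPT4 (0.114). Control pools of PGF (1.13 to 2.29 RPKM) and ANGPTL4 (0.764 to 1.67 RPKM) overlapped. In the evolved CCL218 pools ANGPTL4 was above ADM2 and PGF, and ANGPT4 was above PGF and ANGPT1, and the pools of these pairs did not overlap. The ratio of VEGFA to VEGFB within a library was 0.466, 1.11 and 0.825 in control and 2.20, 2.54 and 2.40 in evolved CCL218 (L, M, R). In OVCAR3 it was 0.392, 1.03 and 0.616 in control and 0.838, 0.736 and 1.49 in evolved pools, which overlapped. Isoforms of VEGFA cannot be told apart in counts per gene.

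**Figure D3:**
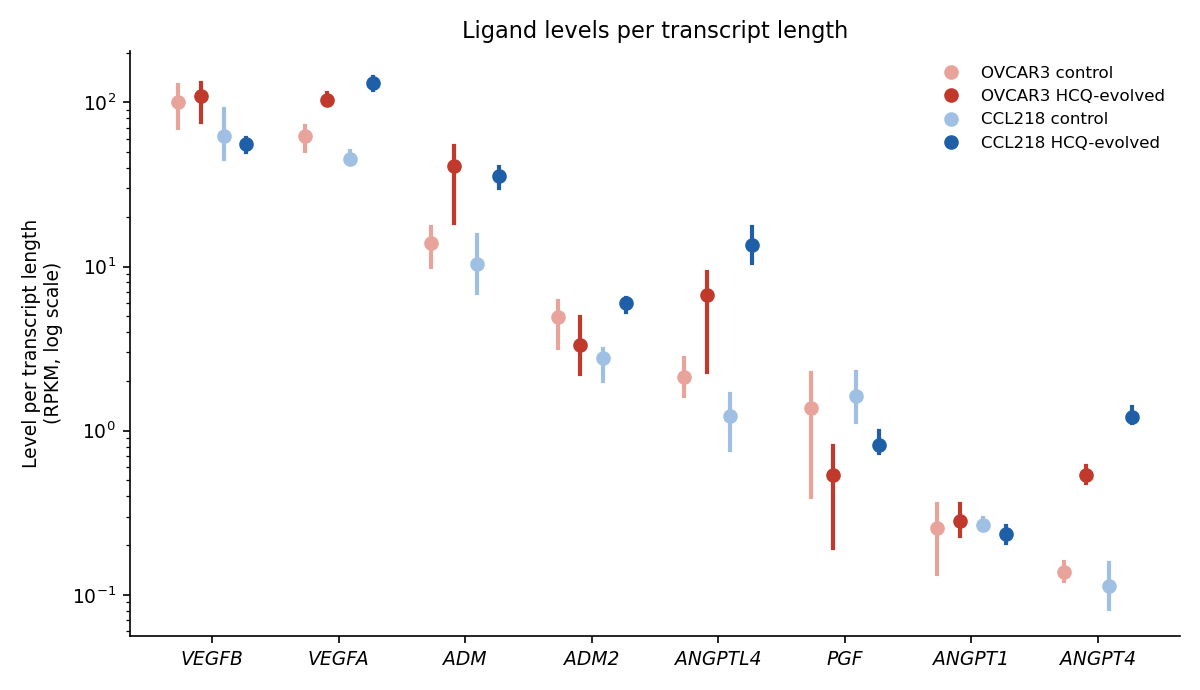
Level per transcript length (RPKM, log axis) of the 8 ligands that passed the filter in the 4 groups; points are means and lines run from the lowest to the highest of 3 pools. VEGFB and VEGFA are at the top in all groups, and ANGPT4 moves from 0.114 to 1.21 RPKM between control and evolved CCL218.

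Order of the groups differed by ligand. For VEGFA and ANGPT4 the order was CCL218 control, OVCAR3 control, OVCAR3 evolved and CCL218 evolved, and only the controls overlapped as neighbours. ANGPTL4 had the same order, but there OVCAR3 control and evolved pools overlapped too. For ADM the evolved pools of both lines overlapped each other (53.0 ± 7.61 CPM in CCL218 and 61.1 ± 29.0 CPM in OVCAR3, SD, n = 3) and lay above all controls. For VEGFB, PGF, ANGPT1 and ADM2 every neighbouring pair of groups overlapped.

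Most receptors for these ligands were hardly detected in the same cells. FLT1, KDR and TIE1 did not exceed 0.232 CPM in any pool and TEK did not exceed 0.816 CPM, and 0 of the 2 TIE receptors (TEK and TIE1) were tested. Of 5 VEGF receptors and co-receptors, 1 was tested in OVCAR3 and 2 in CCL218. NRP1 rose in CCL218 from 18.04 to 30.8 CPM (log2 fold change 0.77, adjusted p = 0.0194, edgeR) and was at 16.8 and 23.3 CPM in control and evolved OVCAR3 (0.49, adjusted p = 0.362, edgeR). Of 5 adrenomedullin receptor parts, only RAMP1, a subunit that with CALCRL forms the receptor of calcitonin gene-related peptide, was tested. RAMP1 fell in CCL218 from 59.2 to 21.1 CPM (log2 fold change -1.49, adjusted p = 0.0312, edgeR) and was at 49.5 and 13.4 CPM in OVCAR3 (-1.87, adjusted p = 0.212, edgeR). CALCRL did not exceed 0.0983 CPM and RAMP3 had 0 counts.

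Other secreted pro-angiogenic factors changed in both directions. Of 8 further VEGF and angiopoietin-like ligands 0 were tested. Of 16 other pro-angiogenic ligands 11 were tested in each line, with median log2 fold changes of 0.14 in OVCAR3 and -0.02 in CCL218. By point estimate 6 were raised in OVCAR3 and 5 in CCL218. DESeq2 called 1 higher and 4 lower in OVCAR3, and 2 higher and 2 lower in CCL218. In OVCAR3 edgeR called 0 higher and 3 lower. These were EDN1, the vasoconstrictor endothelin (log2 fold change -2.22, adjusted p = 0.0071, edgeR), and the matricellular proteins CCN1 (-2.14, adjusted p = 0.0206, edgeR) and CCN2 (-3.73, adjusted p = 0.0272, edgeR). In CCL218 the chemokine CXCL8 (-0.95, adjusted p = 0.0323, edgeR) and midkine, MDK (-0.94, adjusted p = 0.0475, edgeR), fell and PDGFB rose (0.55, adjusted p = 0.0484, edgeR). Of 11 angiogenesis inhibitors 5 were tested. COL18A1, the precursor of endostatin, rose in CCL218 (0.67, adjusted p = 0.0193, edgeR), and VASH2, a vasohibin, had the smallest p of the list in OVCAR3 and did not pass (-1.85, adjusted p = 0.064, edgeR).

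A list of 12 other hypoxia-induced genes was counted beside the ligands. It was chosen with earlier results of these data known. The study itself reports raised glycolysis and hypoxia gene networks, and names KDM3A of this list as upregulated. The counts of this list are therefore a description. In CCL218 11 of 12 tested genes rose, 0 fell and the median log2 fold change was 1.37, led by ENO2 (2.23), EGLN3 (2.19) and NDRG1 (2.70), with adjusted p = 0.00102, 0.00164 and 0.00357 in edgeR. In OVCAR3 3 of 11 rose, 0 fell and the median was 1.08. At an unadjusted p under 0.05, 8 of the 11 passed, and DESeq2 called 7, all higher. The 3 were the oxygen-sensing hydroxylase EGLN3 (1.54, adjusted p = 0.0101, edgeR), the glycolytic enzyme ENO2 (1.81, adjusted p = 0.0101, edgeR) and the collagen hydroxylase P4HA1 (1.65, adjusted p = 0.0215, edgeR). Of 8 HIF subunits and regulators 6 were tested, and EGLN1, which marks HIF for degradation, rose in CCL218 (1.15, adjusted p = 0.0072, edgeR) and was at 0.98 in OVCAR3 (adjusted p = 0.064, edgeR). HIF1A, the oxygen-regulated subunit, was at log2 fold changes of 0.61 and 0.24 and did not pass in either line.

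ANGPTL4 is also a target of PPAR receptors and VEGFA of ATF4, the factor of the integrated stress response, and those lists were counted in the same way. Of 11 PPAR receptors and targets 10 were tested. The lipid droplet protein PLIN2 rose in CCL218 (1.64, adjusted p = 0.0035, edgeR), and the medians were 0.22 in OVCAR3 and 0.25 in CCL218. DESeq2 called 2 of the 10 in each line. Of 7 ATF4 stress genes 6 were tested, and VLDLR, a lipoprotein receptor that HIF also induces, rose in CCL218 (2.03, adjusted p = 0.0027, edgeR). CHAC1 had the smallest p in OVCAR3 and did not pass (-1.96, adjusted p = 0.0517, edgeR), and the medians were -0.67 in OVCAR3 and 0.20 in CCL218. All 6 ATF4 genes had an unadjusted p under 0.05 in OVCAR3, where DESeq2 called 1 higher and 3 lower. No difference in calls between the lists was tested.

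Markers of cell identity moved as well in CCL218. Of 8 colorectal epithelial markers 6 were tested and 4 rose, led by GPA33 (log2 fold change 2.86), CEACAM5 (2.10) and CDH17 (3.77), with adjusted p = 0.000608, 0.00103 and 0.0012 in edgeR. The mean levels of these 4 (CDX2 is the other) summed to 46.0 CPM in control and 216 CPM in evolved CCL218, and to 22.4 and 20.2 CPM in OVCAR3. The sum of all 8 was 1104 to 1597 CPM in control and 1153 to 1211 CPM in evolved CCL218, and 907 to 1120 and 224 to 648 CPM in OVCAR3, mostly from LGALS4 and VIL1, which were not called. In OVCAR3 edgeR called 0 of these 6 and 0 of 4 tested ovarian markers, while 1 of each had an unadjusted p under 0.05 and DESeq2 called 1 of each lower. In CCL218 edgeR and DESeq2 both called 0 of the 4 ovarian markers, with 1 at an unadjusted p under 0.05. The part of these markers in the changes of the ligands was not tested.

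**Figure D4:**
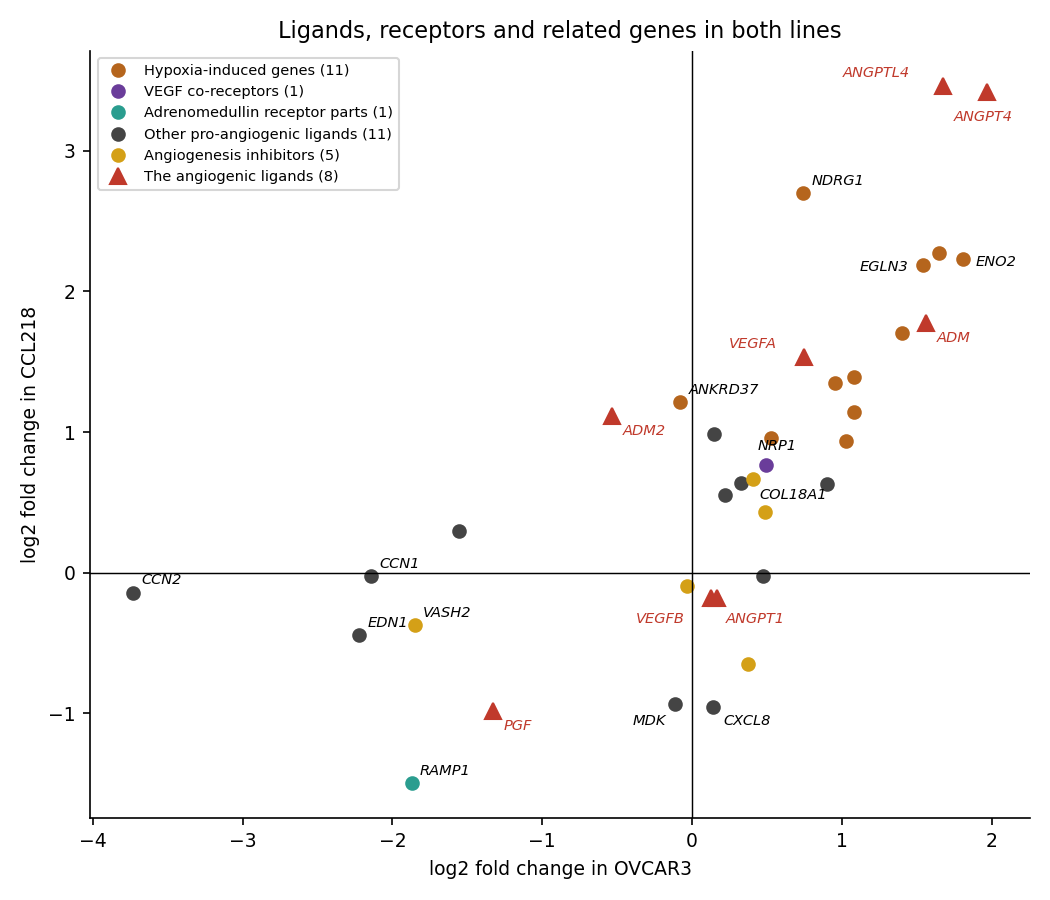
Log2 fold change of HCQ-evolved over control in OVCAR3 (x axis) and CCL218 (y axis) for the ligands (triangles) and for lists of related genes tested in both lines (circles, number of genes in brackets). The hypoxia-induced genes lie above 0 in CCL218 and, apart from ANKRD37 (-0.08), in OVCAR3, while CCN2, CCN1 and EDN1 lie far to the left.

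Across the 12 libraries and 11944 genes tested in both lines, the genes most like ANGPT4 by Pearson's r of log2 CPM were MKNK2 (0.98), EGLN3 (0.98), ELFN2 (0.96), PTPRH (0.96) and C1GALT1 (0.96). Those most like VEGFA were SLC2A1 (0.98), PTPRR (0.97), BHLHE40 (0.97), FAM214B (0.97) and BNIP3L (0.97). Among the ligands r was 0.94 for ANGPT4 with ANGPTL4, 0.93 for ANGPT4 with VEGFA and 0.92 for ANGPTL4 with ADM, and it was 0.19 for ADM with ADM2. The libraries fall into control and evolved groups and share the trends with length, so these values describe a shared pattern over groups and carry no test.

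Genes near ANGPT4, ANGPTL4, ADM and VEGFA were counted against the shares of all genes given above. Those near ADM2, also called in CCL218, were not counted. Within 500000 bases, 11 tested genes lay near ANGPT4, 18 near ANGPTL4 and 6 near ADM, and edgeR called 0 of these in either line. In CCL218 1, 2 and 3 of them had an unadjusted p under 0.05, against 25.2% of all genes, and DESeq2 called 1, 2 and 0, all lower. In OVCAR3 1, 3 and 0 had an unadjusted p under 0.05, and DESeq2 called 1, 2 and 0, all lower. Near VEGFA 19 were tested, and in CCL218 edgeR called POLH, a translesion DNA polymerase, with a rise (log2 fold change 0.97). There 4 had an unadjusted p under 0.05, and DESeq2 called 2 higher and 2 lower. In OVCAR3 edgeR called 0 near VEGFA, 3 had an unadjusted p under 0.05 and DESeq2 called 1 higher and 1 lower. From single-cell RNA, the study inferred selected gains of chromosome 22 (ADM2) in both lines and of chromosome 6 (VEGFA) in CCL218. It inferred selected losses of chromosome 11 (ADM and VEGFB) in CCL218. The part of copy number in the ligand changes was not tested.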

How the data were processed

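The values deposited by the authors are raw counts for each gene symbol. Per the study's methods and processing notes, STAR aligned the reads of polyA RNA to hg38, RmDup took out duplicates and featureCounts did the counting (versions not given in the sources used here). Of entries from 1 to 4, 78.9% were even, so a count may not be 1 molecule and floors cover counting error only. All 12 libraries were used and 0 columns were left without a sample. A gene was tested where 3 or more libraries of the fit reached 1 CPM. The main test was the quasi-likelihood test in edgeR 4.0.16 (TMM, robust, legacy mode; R 4.3.3), run in each line alone, with Benjamini-Hochberg adjustment over all genes and a threshold of 0.05. The interaction used all libraries and the baseline the 6 control libraries. The pipeline was tested on simulated data with 200 changed genes. It recovered 158 in OVCAR3, 194 in CCL218, 91 for the interaction and 158 for the control pools, with 11, 14, 9 and 10 false calls. DESeq2 1.42.0, RLE scaling, no filter, a joint fit, removal of a spline trend with length and GC content, a block for plate position and leaving out each pool were alternatives.

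Deviations of pools of the same plate position correlated at 0.54, 0.27 and 0.23 (L, M, R) in CCL218 and at 0.42, -0.69 and -0.50 in OVCAR3. Between the control plates of the lines they correlated at 0.86, 0.83 and 0.25. The main fits, also that of the control pools, had no block, and plate position was a block only in an alternative. Transcript lengths and positions came from GENCODE 44 on hg38 (25763 of 28278 symbols, 91.1%).

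The ligands and lists were chosen with earlier results of these data known. Named genes are all 10 ligands, up to 3 called genes with the smallest p per list and line (otherwise the one with the smallest p), and the 5 genes most like ANGPT4 and VEGFA. POLH, HIF1A, ANKRD37, PECAM1, EGFL7 and other markers, and SBF1, the ADM2 neighbour, were named after their values were seen. A gene that this rule names is not reported here.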

Additional observations from a re-analysis of the deposited data

How the results depend on the processing

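Over 12 alternatives in each line, the log2 fold change of ANGPT4 lay between 1.87 and 2.06 (OVCAR3) and between 3.23 and 3.71 (CCL218), and the difference between 1.27 and 1.76 over 17. ANGPT4 was picked for its rise in these same values, so these ranges are a description and no support for the rise. VEGFA and ANGPTL4 were called in CCL218 in 12 of 12 alternatives, and ADM and ADM2 in 7 of 12. In OVCAR3 the count of called ligands other than ANGPT4 went from 0 to 1 (ADM) with no filter on low counts and to 3 with DESeq2, with the length and GC trend removed and with all 12 libraries in one fit. It was 0 to 2 on leaving out 1 pool (2 without the HCQ-evolved R pool). In CCL218 it went from 4 to between 2 and 4 on leaving out 1 pool (2 without the R control or any 1 of the evolved pools), was 5, with PGF added, with the replicate block, DESeq2 and the trend removed, and was 3 in the joint fit. For the interaction it went from 0 to 2 with DESeq2, to 1 with the trend removed and to 0 to 1 on leaving out 1 pool (1 without the R pool of HCQ-evolved OVCAR3). For the control pools it went from 0 to 5 with the replicate block and 1 with the trend removed, and stayed at 0 on leaving out 1 pool. The block changed no count of ligands in OVCAR3 or the interaction (0 each), where all genes called in OVCAR3 went from 79 higher and 148 lower to 17 and 64. The causes of these moves were not tested, apart from the fewer samples when a pool is left out.

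Signs turned only for values that did not pass. On leaving out 1 pool, log2 fold changes in OVCAR3 ranged from -0.14 to 0.48 for ANGPT1 and -0.0765 to 0.320 for VEGFB, and in CCL218 from -0.36 to 0.18 for VEGFB. The difference between lines ranged from -0.16 to 0.80 for PGF, -0.11 to 0.66 for ADM and -0.493 to 0.0782 for VEGFB. The ratio of control pools ranged from -0.22 to 0.38 for ANGPT1 and -0.19 to 0.76 for PGF. With the trend removed VEGFB in CCL218 was 0.0163 and the control ratio of ANGPT1 was -0.15.

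All genes called higher and lower in OVCAR3 went from 79 and 148 to 542 and 563 with DESeq2, 571 and 398 with the trend removed, 558 and 607 in the joint fit and 243 and 306 with no filter. In CCL218 they went from 468 and 323 to 1104 and 1068, 1180 and 956, and 957 and 787 with DESeq2, the trend removed and the block. In the interaction 87 and 23 became 306 and 157 with DESeq2, and in the control pools 116 and 133 became 313 and 421. Leaving out 1 pool moved these counts as well. In OVCAR3 they were 0 and 6 without control L, 1 and 3 without control R, and 252 and 324 without the HCQ-evolved R pool, and in CCL218 1676 and 1448 without control L and 106 and 38 without the HCQ-evolved M pool. The 3 pools of a group share 1 plate, and each mixes separately passaged wells, so the spread between single wells was not measured. Counts of ANGPT2 and VEGFC are too few for a test, and ANGPT4, at 18 to 31 counts in controls, has a fold change that rests on small numbers.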
